A study of Mus musculus with 6 samples.

Results

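Heme biosynthesis was described here through 9 genes, *Slc25a38*, *Alas1*, *Alas2*, *Alad*, *Uros*, *Urod*, *Cpox*, *Ppox* and *Fech*. They were taken by gene symbol from a table of 54532 genes, and all 9 had 1 row and enough reads to be tested. The RNA came from GFP+ mouse acute myeloid leukemia (AML) cells of the bone marrow, in which a retrovirus expresses the leukemia fusion RUNX1-ETO9a (RE9a) together with GFP. *WT Phf6,RE9a* cells (WT below) carried the floxed *Phf6* allele without Cre (*Phf6 fl/y*). *VC Phf6,RE9a* cells (VC below) carried it with *Vav1-Cre*, which acts throughout the blood system (*Vav1-Cre;Phf6 fl/y*). *Phf6* encodes a chromatin-associated PHD finger protein. Both groups thus shared the floxed allele, the fusion and the GFP vector, and both leukemias had been started from fetal liver cells of male mice and passed through male recipients. The age at which the marrow was taken and the transplant passage were not given in the sources used here. There were 3 libraries per group, replicates 1, 2 and 3 of WT and replicates 11, 12 and 13 of VC, with 15675358 to 16817994 counted reads each. Whether a group's libraries came from separate mice is not stated, so the p-values measure only the spread between these libraries, which may be technical.

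*Phf6* itself had 1044, 827 and 1142 reads in the WT libraries and 388, 314 and 331 reads in the VC libraries. It was lower in every VC library, with a log2 fold change of -1.66 (SE 0.13, adjusted p = 9.32e-05 by edgeR's quasi-likelihood test). The remaining reads were not assigned to exons, so they do not tell whether the deleted part was still read.

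Heme is an iron-containing ring that is made in a fixed chain of enzymes shared between mitochondria and cytosol. The chain opens in mitochondria, where 5-aminolevulinate synthase joins glycine and succinyl-CoA. ALAS1 does this in all cells and ALAS2 in erythroid cells, and SLC25A38 is the mitochondrial carrier that brings in glycine. Cytosolic enzymes, among them ALAD, UROS and UROD, then build and trim the ring, and CPOX, PPOX and FECH finish it in mitochondria, where FECH inserts the iron. Red cell precursors need by far the most heme in the bone marrow, because globin binds it, but every cell needs some for cytochromes and other heme proteins.

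Sequence before the genes is shown for the members with a GATA match, with *Urod* as a member without any match. GATA1 and KLF1 are erythroid transcription factors, and the letters searched were GATA, with A or T before it and A or G after it, for GATA factors, and CACCC for Krüppel-like factors, on both strands, in the 250 bases before each RefSeq transcript start (GRCm38.p6). Of 32851 such windows of all genes, 26.5% held a GATA match, 52.0% a CACCC match and 11.8% both. RefSeq windows were at hand for 8 of the 9 members. A GATA match lay in the windows of *Alas2*, *Cpox* and the downstream of both *Uros* starts, and none lay in those of *Slc25a38*, *Alas1*, *Alad*, *Urod*, *Ppox* or the upstream *Uros* start. A CACCC match lay in the windows of *Alas2*, *Cpox*, *Slc25a38*, both *Alas1* starts and the downstream of both *Alad* starts. Each run below is written 5′ to 3′ on the strand of its gene, with matches in capitals, and ends where the window ends or where an annotated exon begins. The *Alas2* run is chrX:150547167-150547374 (+ strand), the *Uros* run chr7:133702617-133702750 (− strand), the *Cpox* run chr16:58669958-58670207 (+ strand) and the *Urod* run chr4:116994414-116994663 (− strand).
Alas2: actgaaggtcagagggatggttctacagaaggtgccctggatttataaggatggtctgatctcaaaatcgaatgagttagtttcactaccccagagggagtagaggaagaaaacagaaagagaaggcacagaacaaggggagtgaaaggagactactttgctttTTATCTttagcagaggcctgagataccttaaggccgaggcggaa
Uros: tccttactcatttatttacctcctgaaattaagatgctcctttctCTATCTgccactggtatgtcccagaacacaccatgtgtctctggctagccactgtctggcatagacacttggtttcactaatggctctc
Cpox: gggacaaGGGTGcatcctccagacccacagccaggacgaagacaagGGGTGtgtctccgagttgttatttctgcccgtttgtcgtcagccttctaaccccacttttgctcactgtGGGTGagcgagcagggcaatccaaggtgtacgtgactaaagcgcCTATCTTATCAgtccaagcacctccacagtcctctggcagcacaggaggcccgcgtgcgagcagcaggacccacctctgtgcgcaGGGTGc
Urod: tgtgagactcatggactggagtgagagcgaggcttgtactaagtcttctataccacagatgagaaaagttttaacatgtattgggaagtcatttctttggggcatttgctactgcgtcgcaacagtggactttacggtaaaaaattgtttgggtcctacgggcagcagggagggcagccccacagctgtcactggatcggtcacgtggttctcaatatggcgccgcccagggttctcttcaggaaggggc

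The *Alas2* match was AGATAA on the opposite strand, 86 to 81 bases before the RefSeq start. In the same window 3 CACCC matches on the opposite strand, 40 to 26 bases before the RefSeq start, fell in the first exon of a longer annotated transcript and are not printed. The *Cpox* window held AGATAG and TGATAA on the opposite strand, which overlapped in 1 base, at 91 to 86 and 86 to 81 bases before the start, and 4 CACCC matches. The *Uros* window held AGATAG at 205 to 200 bases before the start, printed above, and TGATAA at 68 to 63 bases, which lay in an annotated exon. *Uros* is known to have a housekeeping and an erythroid promoter, and the counts were summed over the gene, so they do not tell which start was used. A match is only a run of letters.

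A further element is known to set *Alas2* apart. Its 5′ untranslated region carries an iron-responsive element, a hairpin bound by the iron regulatory proteins, which hold back translation when iron is low. A scan of 27 annotated transcripts of 8 members, without *Fech*, for the hairpin (a CAGTGN loop on a stem of 5 pairs) matched in *Alas2* only. In the match the loop is in capitals. It begins at base 150547459 of chromosome X on the + strand (GRCm38), and its last base lies in the next exon, at 150552149.
Alas2 element: tggttcgtcctCAGTGCagggcaacagg

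Of the 9 genes, 7 rose in VC cells, 0 fell, and *Alas1* and *Slc25a38* did not pass (threshold 0.05 on p from edgeR's quasi-likelihood test, Benjamini-Hochberg adjusted over 14169 tested genes). Over all tested genes 21.5% were higher and 22.7% lower by the same rule. At an unadjusted p under 0.05, 8 of the 9 were higher and 0 lower, against 3652 higher and 3734 lower of all 14169 tested genes, and DESeq2 also called 7 higher and 0 lower. In 7 of the 9 the libraries of the groups did not overlap, all with VC on the higher side, compared with 28.9% of all tested genes on that side and 28.4% on the lower side. The median log2 fold change was 0.70 for the 9 genes, with a range of 0.31 to 2.06, and 0.01 for all tested genes. In RNA from a mass of cells, a larger share of cells that express these genes and more RNA per cell cannot be told apart.

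**Figure D1:**
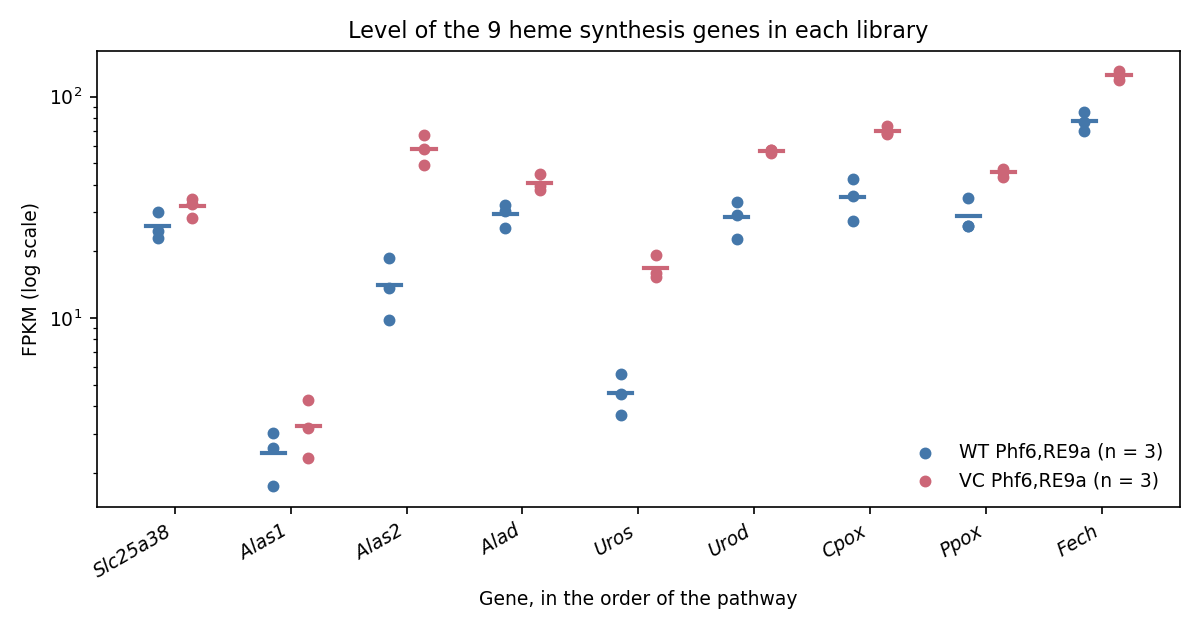
FPKM (reads scaled for gene length and library size) of the 9 heme synthesis genes, on a log scale and in the order of the pathway. Each library is 1 point, and a line marks each group's mean. *Alas2* and *Uros* show the widest gaps between the groups, while the points of *Alas1* and *Slc25a38* overlap.

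The supply of glycine came first. *Slc25a38* (chromosome 9, 120110374 to 120124504) had 1051, 1231 and 1054 reads in WT cells and 1340, 1559 and 1627 reads in VC cells. The highest WT library, replicate 2, came above the lowest VC library, replicate 11, after scaling for library size. Its level was 25.99 ± 3.73 FPKM in WT and 31.9 ± 3.16 FPKM in VC cells (mean ± SD, n = 3 each), a log2 fold change of 0.31 (SE 0.13, adjusted p = 0.0828 by edgeR). It passed the threshold when WT replicate 2 was left out (adjusted p = 0.0188) or when libraries were scaled by their total counts alone (log2 fold change 0.46, adjusted p = 0.0196).

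The first step has 2 isoenzymes. *Alas2*, the erythroid one (chromosome X, 150547375 to 150570638), had 508, 349 and 748 reads in WT cells and 2024, 2794 and 2395 reads in VC cells. Every VC library was above every WT library, and within WT the second replicate was lowest and the third highest. In FPKM the levels were 13.7, 9.77 and 18.6 in WT against 49.1, 67.3 and 58.1 in VC cells. *Alas2* rose 4.16-fold (log2 fold change 2.06, SE 0.23, adjusted p = 0.000409 by edgeR), more than any other member in point estimate.

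*Alas1*, the isoenzyme used by all cells (chromosome 9, 106233455 to 106248654), had 165, 238 and 310 reads in WT cells and 449, 340 and 246 reads in VC cells. The groups overlapped, since VC replicate 13 had fewer reads than WT replicate 3. Its level was 2.45 ± 0.649 FPKM in WT and 3.25 ± 0.959 FPKM in VC cells, with a log2 fold change of 0.42 (SE 0.27, adjusted p = 0.251 by edgeR). Without 1 library in turn its log2 fold change ran from 0.18 (without VC replicate 11) to 0.60 (without VC replicate 13). In deposited FPKM *Alas1* was the lowest of the 9 genes in both groups.

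Within each library *Alas2* had more reads than *Alas1* and was the more abundant isoenzyme per deposited gene length. That length was 2403 bases for *Alas2* and 6174 for *Alas1*. It covers all annotated exon bases of a gene, not those of 1 transcript. The ratios and shares below thus depend on the gene model, while the log2 difference between the groups does not. The ratio of *Alas2* to *Alas1* FPKM was 7.91, 3.77 and 6.20 in WT and 11.6, 21.1 and 25.0 in VC cells. The ratio was higher in all 3 VC libraries than in any WT library. On average it was 5.96 ± 2.08 in WT and 19.2 ± 6.91 in VC cells, a difference of 1.68 on the log2 scale. With 3 against 3 libraries the exact two-sided permutation test gave p = 0.1, the smallest it can give. *Alas2* thus made up 84.6 ± 5.04% of the summed FPKM of both isoenzymes in WT and 94.6 ± 2.20% in VC cells.

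**Figure D2:**
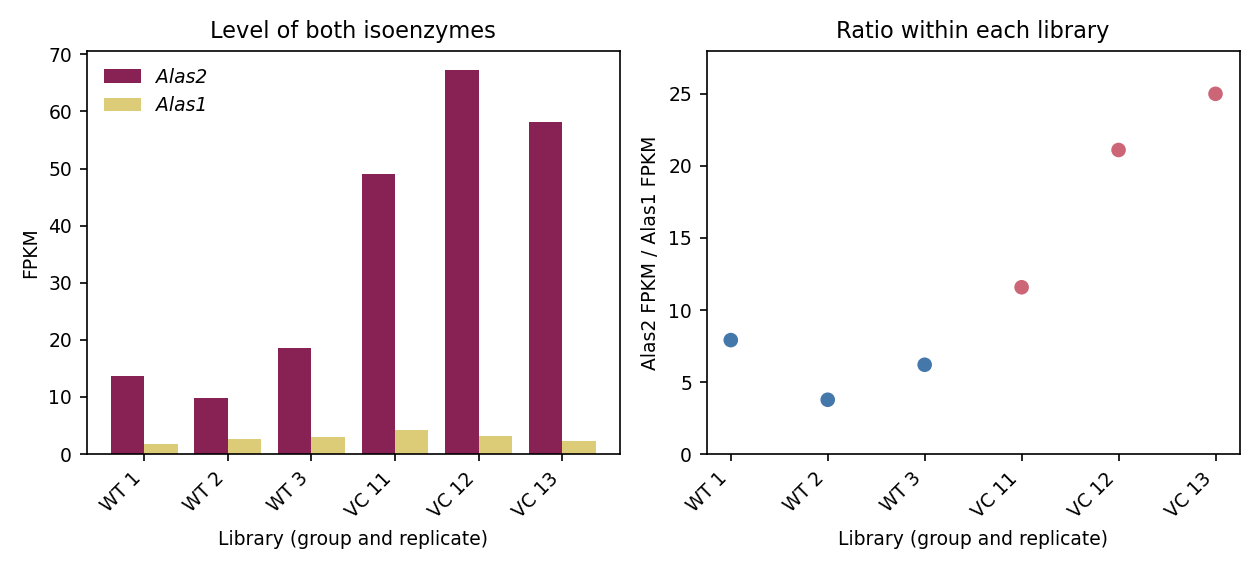
Left, FPKM of *Alas2* and *Alas1* in each library as bars, and right, their ratio in each library as points, with WT replicates 1 to 3 and VC replicates 11 to 13 along the axis. The *Alas2* bars are taller in the VC libraries and the *Alas1* bars are not separated by group, so that the ratio runs from 3.77 to 7.91 in WT and from 11.6 to 25.0 in VC libraries.

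The cytosolic steps rose by 1.39-fold (*Alad*) to 3.70-fold (*Uros*). *Alad*, whose enzyme condenses pairs of aminolevulinate into porphobilinogen (chromosome 4, 62509169 to 62519918), had 938, 712 and 950 reads in WT cells and 1272, 1448 and 1216 reads in VC cells. All VC libraries were higher, but the gap was small. *Alad* rose 1.39-fold (log2 fold change 0.47, SE 0.11, adjusted p = 0.0114 by edgeR), from 29.5 ± 3.55 to 40.8 ± 3.57 FPKM.

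*Uros*, the synthase that closes the ring (chromosome 7, 133686243 to 133710072), had 251, 193 and 332 reads in WT cells and 942, 1187 and 983 reads in VC cells. The lowest VC library had more than 2-fold the reads of the highest WT library. *Uros* rose 3.70-fold (log2 fold change 1.89, SE 0.17, adjusted p = 0.000164 by edgeR), from 4.58 ± 0.963 to 16.9 ± 2.05 FPKM. Its pattern across the 6 libraries was the one nearest to that of *Alas2* among all 13032 genes with a mean CPM (count scaled to a common library size) of at least 1, at a root mean square distance of 0.145 in centred log2 CPM.

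*Urod*, the decarboxylase that trims the ring's side chains (chromosome 4, 116989965 to 116994413), had 1169, 876 and 1444 reads in WT cells and 2549, 2496 and 2546 reads in VC cells. The VC libraries lay close together, and all were above the WT libraries. *Urod* rose 2.01-fold (log2 fold change 1.01, SE 0.14, adjusted p = 0.000951 by edgeR), from 28.5 ± 5.35 to 56.8 ± 0.920 FPKM.

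The closing mitochondrial steps rose by 1.59-fold (*Ppox*) to 2.0-fold (*Cpox*). *Cpox*, the coproporphyrinogen oxidase (chromosome 16, 58670292 to 58717636), had 3662, 2715 and 4711 reads in WT cells and 7728, 8444 and 7841 reads in VC cells. Its groups did not overlap, and WT replicate 2 was again the lowest library. *Cpox* rose 2.0-fold (log2 fold change 1.00, SE 0.15, adjusted p = 0.00172 by edgeR), from 35.2 ± 7.47 to 69.9 ± 3.05 FPKM. *Urod* and *Cpox* were the nearest pair among the 9 genes, at a distance of 0.0543 in centred log2 CPM.

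*Ppox*, which oxidizes the ring to protoporphyrin (chromosome 1, 171275990 to 171281186), had 1803, 2330 and 1969 reads in WT cells and 3375, 3696 and 3549 reads in VC cells. Here WT replicate 2 was the highest WT library, unlike in *Alas2*, *Uros*, *Urod* and *Cpox*, and still below all VC libraries. *Ppox* rose 1.59-fold (log2 fold change 0.67, SE 0.13, adjusted p = 0.00445 by edgeR), from 28.9 ± 5.03 to 45.6 ± 1.91 FPKM.

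*Fech*, the ferrochelatase that inserts iron (chromosome 18, 64456550 to 64489066), had 3445, 3021 and 4150 reads in WT cells and 5927, 6293 and 6465 reads in VC cells. Every VC library was above every WT library. *Fech* rose 1.62-fold (log2 fold change 0.70, SE 0.10, adjusted p = 0.00127 by edgeR). Its level per length depends on the gene model. The deposited length of 2901 bases gave 77.6 ± 7.79 and 124.8 ± 5.49 FPKM, the highest of the 9 genes, whereas the 13838 exon bases of the GENCODE M21 gene would give 16.3 and 26.2 FPKM. The fold change is not affected by the length.

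**Figure D3:**
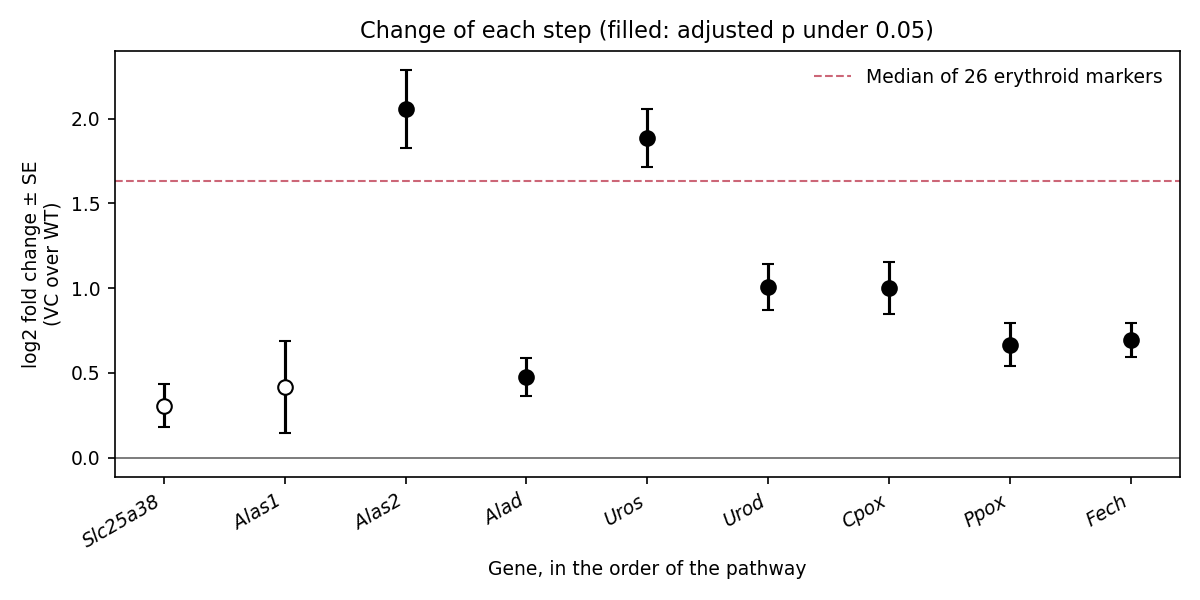
Log2 fold change of VC over WT cells, with its standard error, for the 9 genes in the order of the pathway, filled where the adjusted p was under 0.05, with a dashed line at the median of 26 erythroid markers. *Alas2* and *Uros* lie above the dashed line, at 2.06 and 1.89, and all others lie below it.

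The order of the levels was not the same in both groups. In WT cells the deposited FPKM ran from *Fech* through *Cpox*, *Alad*, *Ppox*, *Urod*, *Slc25a38*, *Alas2* and *Uros* to *Alas1*. The libraries of *Cpox* and *Alad*, *Alad* and *Ppox*, *Ppox* and *Urod*, and *Urod* and *Slc25a38* overlapped, so the middle of that order was not resolved. In VC cells *Alas2* came next after *Fech* and *Cpox*, although its libraries overlapped those of *Urod*, the next gene, as those of *Ppox* overlapped those of *Alad*. Of the summed FPKM of the 9 genes, *Alas2* took 5.62 ± 1.32% in WT and 12.9 ± 1.38% in VC cells. The share of *Uros* was 1.84 ± 0.236% and 3.76 ± 0.293%, while that of *Fech* was 31.4 ± 0.524% and 27.9 ± 1.06%. These shares and the order rest on the deposited gene lengths, of which only that of *Fech* differed from the gene's GENCODE exon bases. With the GENCODE length the share of *Fech* would be 8.765 ± 0.1945% and 7.50 ± 0.363%, that of *Alas2* 7.48 ± 1.80% and 16.6 ± 1.66%, and that of *Uros* 2.455 ± 0.3278% and 4.815 ± 0.3251%. *Cpox* would then be the highest in both groups, followed in VC cells by *Alas2*. The summed counts of the 9 genes were 842.2, 790.0 and 946.9 CPM in WT and 1509, 1644 and 1594 CPM in VC libraries, with no overlap.

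Some reads of these loci may belong to neighbours on the other strand, since the strandedness of the libraries was not stated. *Alas2* shares 311 of its exon bases (12.9%) with *Apex2*, a DNA repair nuclease gene, which had 198, 194 and 239 reads in WT and 416, 379 and 413 reads in VC cells. *Apex2* also rose (log2 fold change 0.81, SE 0.13, adjusted p = 0.00172 by edgeR), but had fewer reads than *Alas2* in every library. *Ppox* shares 791 exon bases (17.5%) with *B4galt3*, which had 462, 575 and 533 reads in WT and 662, 748 and 670 reads in VC cells (log2 fold change 0.27, adjusted p = 0.106 by edgeR). The neighbours that overlap *Alas1* and *Cpox* had 3 and 6 reads in all libraries together, and no other gene's exons overlap *Slc25a38*, *Alad*, *Uros*, *Urod* or *Fech*.

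The genes with the most similar pattern were sought in the same centred log2 CPM. Besides *Uros*, *Nrgn* (distance 0.167) was among the 3 nearest to *Alas2*. The nearest to *Alas1* were *Mthfs* (0.0774), *Gm7901* (0.0811) and *Gm45737* (0.143). For the other genes that rose, the nearest were *Nfs1* for *Alad* (0.0342), *Fn3krp* for *Uros* (0.0626), *Tars* for both *Urod* (0.0295) and *Cpox* (0.0368), *Tarbp2* for *Ppox* (0.0374) and *Larp4* for *Fech* (0.0321). *Alas2* and *Slc25a38* were the farthest apart of the 9 genes, at 0.974.

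The partners of the pathway came next. Of 24 genes for substrate supply, iron-sulfur clusters, transport and enzyme maturation, 23 were tested, of which 12 were higher (52.2%) and 4 lower (17.4%), against 21.5% and 22.7% of all tested genes, with a median log2 fold change of 0.39. *Tmem14c*, a mitochondrial protein needed for porphyrin entry in erythroid cells, rose 2.58-fold (log2 fold change 1.37, SE 0.13, adjusted p = 0.000191 by edgeR), from 121.9 ± 19.8 to 312.7 ± 16.97 FPKM. *Abcb10*, a mitochondrial transporter that stabilizes the iron importer mitoferrin 1, rose 2.30-fold (log2 fold change 1.20, SE 0.092, adjusted p = 8.72e-05). *Tspo*, an outer membrane porphyrin-binding protein, rose 1.75-fold (log2 fold change 0.81, adjusted p = 0.000397 by edgeR). Others that rose were *Slc25a37* (mitoferrin 1), *Slc25a39*, *Slc6a9* (the plasma membrane glycine carrier), *Fam210b*, *Abcb6*, *Glrx5*, *Nfs1* and *Iscu*, by 1.28-fold (*Iscu*) to 1.71-fold (*Fam210b*). *Abcb6* and *Iscu* were near the threshold (adjusted p = 0.0499 and 0.0451 by edgeR), and passed it in 0 and 1 of the 6 fits that left out a library.

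The partners that fell were *Lonp1*, *Pgrmc1*, *Tspo2* and *Sucla2*. *Tspo2*, an erythroid relative of *Tspo*, had 905, 1006 and 914 reads in WT and 597, 754 and 734 reads in VC cells, and its groups did not overlap. It fell by 0.57 on the log2 scale (SE 0.13, adjusted p = 0.00821 by edgeR), opposite to the erythroid synthase *Alas2*. *Pgrmc1*, a heme-binding partner of ferrochelatase, fell by 0.52 (adjusted p = 0.00164 by edgeR). *Lonp1*, a mitochondrial protease, fell by 0.32 and *Sucla2*, a subunit of a succinyl-CoA synthetase, by 0.53 on the same scale. *Lonp1* lost its call without VC replicate 11 or 13 and *Sucla2* without VC replicate 13, as did *Slc25a37* without VC replicate 12. *Clpx*, which activates ALAS in mitochondria, had a log2 fold change of 0.17 (adjusted p = 0.157 by edgeR).

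Genes whose proteins move, bind, sense or break down heme were counted separately. Of 14 such genes 12 were tested, of which 6 were higher (50%) and 1 lower (8.33%), against 21.5% and 22.7% of all tested genes, with a median of 0.62. *Hebp1*, a heme-binding protein, had 97, 76 and 158 reads in WT and 835, 1112 and 740 reads in VC cells. All VC libraries were far above the WT libraries, a 7.49-fold rise (log2 fold change 2.90, SE 0.25, adjusted p = 0.000142 by edgeR). *Blvrb*, a biliverdin reductase, rose 2.46-fold, *Abcg2*, an exporter of porphyrins, 2.42-fold, and *Slc48a1*, which moves heme out of lysosomes, 2.11-fold. *Bach1*, a heme-sensing repressor, and *Eif2ak1*, the kinase that halts translation when heme is short, rose 1.75-fold and 1.54-fold. *Flvcr1*, a heme exporter, fell by 0.84 on the log2 scale (SE 0.20, adjusted p = 0.0113 by edgeR). *Hmox1*, the heme oxygenase, had 245, 161 and 98 reads in WT and 109, 125 and 80 reads in VC cells, which overlap. Its log2 fold change was -0.82 (SE 0.36, adjusted p = 0.0997 by edgeR). This value ran from -1.13 to -0.46 without 1 library in turn, and *Hmox1* passed on the lower side without WT replicate 3.

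Of 22 genes of proteins that carry, attach or modify heme, 20 were tested. Of these 6 were higher (30%) and 5 lower (25%), near the 21.5% and 22.7% of all tested genes, with a median of 0.19. *mt-Cytb*, the mitochondrial cytochrome b gene and the most abundant, had a log2 fold change of 0.30 (adjusted p = 0.164 by edgeR). *Cyc1*, cytochrome c1 of complex III, rose 2.21-fold (log2 fold change 1.15, SE 0.15, adjusted p = 0.000834). *Sdhd*, a subunit of complex II, rose 1.31-fold (adjusted p = 0.0466 by edgeR) and passed in 2 of the 6 fits that left out a library. *Epx*, the eosinophil peroxidase, had 4, 2 and 19 reads in WT and 91, 246 and 70 reads in VC cells. It entered the tested genes only through its VC reads, so its call is not read as a result, and the count of heme proteins called higher was 5 among genes with at least 10 reads in every library. *Cyba*, a subunit of the phagocyte NADPH oxidase, fell by 0.43 and *Cyp51*, a sterol demethylase, by 1.28 on the log2 scale. The remaining calls were *Mpo*, *Cybb* and *Steap3* on the higher side and *Cat*, *Cyb5a* and *Ptgs2* on the lower. Of these *Steap3* passed in 2, *Mpo* in 4 and *Cat* in 4 of the same 6 fits. The count of heme proteins called higher was 3 without WT replicate 1 or VC replicate 11 and 8 without WT replicate 3.

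Of 14 known regulators, 13 were tested, and 6 were higher (46.2%) and 2 lower (15.4%), against 21.5% and 22.7% of all tested genes. Their median log2 fold change was 0.16. *Gata1* encodes a GATA factor of erythroid and some other blood cells. It had 2650, 2307 and 3237 reads in WT and 3150, 3184 and 3324 reads in VC cells. Its groups overlapped, with a log2 fold change of 0.12 (adjusted p = 0.375 by edgeR), while *Gata2*, the related factor of stem, progenitor and mast cells, fell by 0.71 (SE 0.16, adjusted p = 0.00869). *Lmo2*, which joins GATA factors in a complex, rose 3.68-fold (log2 fold change 1.88, SE 0.14, adjusted p = 8.62e-05 by edgeR). Its partner *Ldb1* rose 1.37-fold and *Nfe2*, a subunit of an erythroid and megakaryocyte factor, 2.48-fold. *Zfpm1* and *Nrf1* were also called higher and *Nfe2l1* lower. All 3 calls were lost without some single libraries, since *Zfpm1* passed in 4, *Nrf1* in 1 and *Nfe2l1* in 2 of the 6 fits that left out a library. *Aco1*, which encodes iron regulatory protein 1, rose 2.11-fold (log2 fold change 1.08, SE 0.094, adjusted p = 0.000142 by edgeR), and *Ireb2*, which encodes iron regulatory protein 2, had a log2 fold change of 0.16 (adjusted p = 0.133). Both proteins bind the *Alas2* element printed above, and RNA counts do not measure its translation.

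**Figure D4:**
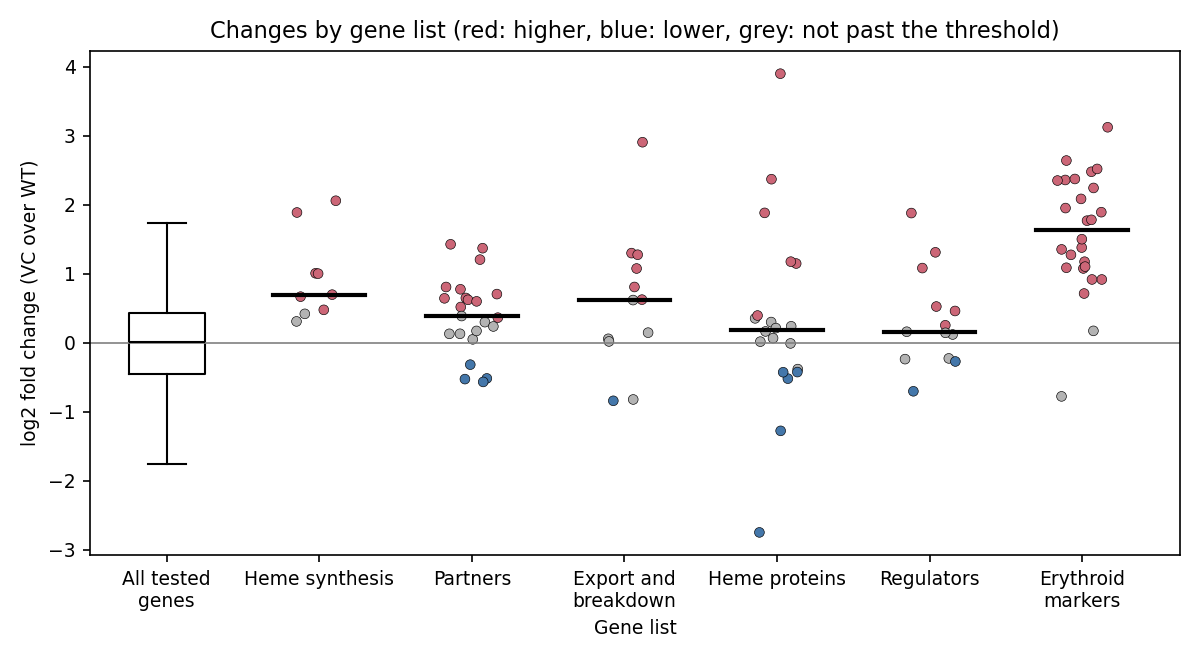
Log2 fold change of VC over WT cells for each tested gene of 6 lists, with a line at each list's median and a box plot of all 14169 tested genes at the left, red for genes called higher, blue for genes called lower and grey for the rest. The heme synthesis genes (median 0.70) and the erythroid markers (median 1.63) hold no blue point, and the other lists hold points of both colours.

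Markers of red cell precursors moved with the pathway. Of 31 erythroid markers 30 were in the table and 26 were tested, of which 24 were higher (92.3%) and 0 lower, against 21.5% and 22.7% of all tested genes, with a median of 1.63. These 24 and 0 were also the counts without adjustment, at p under 0.05. Their summed level was 5047, 4067 and 5535 CPM in WT and 12140, 13070 and 11870 CPM in VC libraries, with no overlap. *Hbb-bs*, an adult beta globin gene, was the most abundant and rose 1.89-fold (log2 fold change 0.92, SE 0.18, adjusted p = 0.00461 by edgeR). *Hba-a1* rose 5.12-fold (log2 fold change 2.36, adjusted p = 0.000225 by edgeR). *Hba-a2* and *Hbb-bt* rose by 2.64 and 1.35 on the log2 scale. Globin genes share reads with near-identical copies, and their values are uncertain. *Rhd*, a blood group membrane protein, rose 5.18-fold, *Tspan33* 2.83-fold, *Epor*, the erythropoietin receptor, 2.60-fold, *Klf1* 2.42-fold and *Car1*, a carbonic anhydrase, 2.11-fold. *Hba-x* and *Icam4* had 0 reads in all 6 libraries, which allows at most 0.191 CPM in any of them, for counting error only. *Epb41* and *Add2* did not pass.

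Markers of other blood lineages were counted in the same way, to be read against the 21.5% higher and 22.7% lower of all tested genes. Of 12 myeloid markers 6 were higher (50%) and 4 lower (33.3%), with a median log2 fold change of 1.02. *Elane*, *Prtn3*, *Ctsg*, *Itgam*, *Csf3r* and *Cebpa*, which mark granulocytes and their precursors, rose by 2.74-fold (*Ctsg*) to 9.58-fold (*Csf3r*), and *Itgam* passed in 2 of the 6 fits that left out a library. In those fits the log2 fold change of *Ctsg* ran from 1.07 to 1.75 (1.45 with all libraries). That of *Csf3r* ran from 2.83 to 3.93 (3.26 with all libraries). *Kit*, *Cd34*, *Cd33* and *Fcgr3* fell. The summed level of the 12 genes, of which *Kit* had 2416 CPM on average in WT and 272.8 CPM in VC cells, was 3277, 3847 and 2391 CPM in WT and 726.1, 758.9 and 512.9 CPM in VC libraries, and so went the other way from the median. Of 11 mast cell and basophil markers 0 were higher and 10 lower (90.9%), and their summed level, led by *Cpa3*, was 28170, 32380 and 19580 CPM in WT and 6004, 6296 and 6590 CPM in VC libraries. Of 9 macrophage markers 2 were higher (22.2%) and 0 lower. Of these *Mertk* (5, 8 and 6 reads in WT and 14, 19 and 14 in VC cells) was tested only through its VC reads and passed in 1 of the 6 fits that left out a library. *C1qb* passed on the higher side without WT replicate 2, and *Cd163* on the lower side without WT replicate 3. *Cd5l* (9, 27 and 8 reads in WT and 24, 51 and 37 in VC cells) also passed without WT replicate 2. In that fit it was tested only through its VC reads, so the call is not read as a result. The 9 summed to 16.6, 24.5 and 12.1 CPM in WT and 35.2, 31.9 and 32.9 CPM in VC libraries. *Vcam1*, which had the most reads of the 9, rose (log2 fold change 1.53, adjusted p = 0.00503 by edgeR), and *C1qa*, the most abundant per length, did not pass (adjusted p = 0.212). The B and T cell markers entered the tested genes, where they did, only through their VC reads, as did *Gp9* among the megakaryocyte markers, so their calls are not read as results. The 5 B cell markers summed to at most 1.10 CPM in WT and 24.6 CPM in VC libraries, with *Cd79b* (6, 0 and 6 reads in WT and 74, 105 and 40 in VC cells) the most abundant per length. The 5 T cell markers summed to at most 1.45 and 8.02 CPM, led by *Lck* (5, 8 and 16 reads in WT and 95, 117 and 90 in VC cells). *Gp9* had 3, 2 and 0 reads in WT and 16, 21 and 24 in VC cells. The other 4 megakaryocyte markers tested held 3 lower calls and 1 without a call. The 10 markers, led by *Itga2b*, summed to 387.7, 354.7 and 257.0 CPM in WT and 42.0, 46.8 and 45.1 CPM in VC libraries, and *Gp1bb* had 0 reads throughout. The part of these cell types in the rise of the heme synthesis genes was not tested.

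The 9 genes were also set against the erythroid markers of the same library, a comparison chosen after seeing the data. For each gene the mean log2 CPM of the 26 tested erythroid markers was subtracted from its own. That mean was 6.35, 5.83 and 6.44 in WT and 7.81, 7.97 and 7.74 in VC libraries. Relative to it, *Alas2* was higher in all 3 VC libraries than in any WT library, by 0.46 on the log2 scale, and *Uros* by 0.26. The other 7 genes were lower relative to the erythroid markers, also without overlap, from -0.61 for *Urod* and *Cpox* through -0.93 for *Fech*, -0.95 for *Ppox* and -1.15 for *Alad* to -1.22 for *Alas1* and -1.32 for *Slc25a38*. Each of these differences had an exact two-sided permutation p of 0.1, the smallest that 3 against 3 libraries allow.

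**Figure D5:**
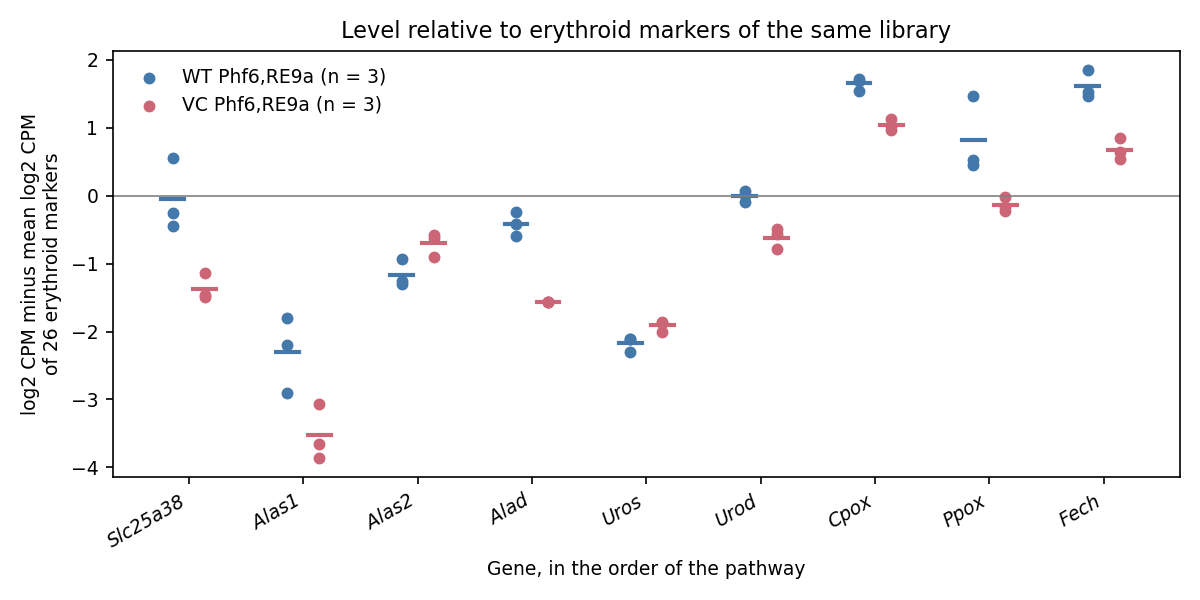
Log2 CPM of each gene minus the mean log2 CPM of 26 erythroid markers in the same library, with 1 point per library and a line at each group's mean, in the order of the pathway. The VC points lie above the WT points for *Alas2* and *Uros* and below them for the other 7 genes.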

How the data were processed

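RNA of GFP+ leukemia cells was sequenced in 3 WT and 3 VC libraries, and 1 table of 54532 genes was analysed. It holds raw read counts, as the authors deposited them, and FPKM, in which the authors divided each count by gene length and an effective library size. The deposited columns of fold changes, p-values and other results of the authors' own comparison were not used. The submitters' processing notes name Bowtie 0.12.0 and the build mm8, with no role given. The coordinates in the table are those of GRCm38, however, since 98.33% of 54409 genes found in GENCODE M21 had the same start and end there. The counting tool and strandedness are not given in the sources used here.

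Total counts ran from 15675358 to 16817994. Within each group, pairs of libraries differed beyond sampling noise, with a chi-square of 11.8 to 46.4 per gene. In R 4.3.3, counts were filtered with filterByExpr, scaled by TMM and tested with edgeR 4.0.16's quasi-likelihood test over 14169 genes, Benjamini-Hochberg adjusted, at 0.05 and two-sided. The SE given with a fold change is its absolute log2 value divided by the square root of the test's F statistic. The script was tested on simulated data. Log2 CPM used a prior count of 2, and FPKM is given as deposited. Alternatives were DESeq2 1.42.0, size factors, library totals, other count filters, limma 3.58.1 on log2 FPKM, a threshold of 0.01 and leaving out each library. Plots used Python 3.11.15 and matplotlib 3.10.9. Promoter windows came from RefSeq (GRCm38.p6).

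The 9 genes and the lists of partners, heme handling, heme proteins, regulators and cell type markers were chosen with earlier results of these data known, so their counts are descriptions and no list was tested as a set. Named were all 9 genes and *Phf6*, from each of the 4 heme-related lists and the erythroid list the 3 genes with the highest mean FPKM and the 3 with the smallest p, the globin genes, the most abundant gene of each other marker list, markers with 0 reads, and for *Alas1* and *Alas2* the 3 genes with the nearest pattern (1 for each other gene that rose). Further genes named, among them *Tspo2*, *Gata1*, *Klf1*, *Hmox1*, *Ireb2*, *Flvcr1*, *Mpo*, *Gp9*, *Vcam1* and *Bach1*, were chosen after their values were seen. Some genes that the rule or the lists include are not reported here, and *Ahsp* was not analysed here.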

Additional observations from a re-analysis of the deposited data

How the results depend on the processing

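The 7 genes that rose kept their direction and stayed past the threshold under DESeq2, size factors, library totals and both other count filters. They also did so under limma on log2(FPKM + 1) and log2(FPKM + 0.1), and without any single library. The threshold of 0.01 was applied to the main fit only, where all but *Alad* passed it. At 0.01 *Ppox* would not pass in some of the other fits, such as limma on log2(FPKM + 0.1) (adjusted p = 0.0142). Without 1 library in turn *Alas2* ran from 1.84 to 2.31, *Uros* from 1.74 to 2.05, *Alad* from 0.37 to 0.54, and *Slc25a38* from 0.22 to 0.42. Scaling by library totals moved the median of all genes by 0.16 and the share of higher calls among all calls from 48.7% to 62.1%, with 4048 higher and 2474 lower. It gave *Slc25a38* 0.46, the 9 genes' median 0.84, 2 partners and 1 regulator lower, and 10 heme proteins higher. DESeq2, no count filter and limma on either FPKM scale called 1 regulator lower. A stricter threshold of 0.01 left 1690 genes higher and 2110 lower, with 2 partners, 0 heme handling genes and 1 regulator lower and 3 heme proteins higher. Without 1 library in turn, 3 to 8 heme proteins were higher, and 2 to 4 partners (2 without VC replicate 13), 1 to 2 heme handling genes (2 without WT replicate 3), 1 to 3 regulators and 0 to 1 erythroid markers (*Add2*, without VC replicate 12) were lower. Relative to the erythroid markers, the direction turned for *Slc25a38* (-1.32), *Alas1* (-1.22), *Alad* (-1.15), *Ppox* (-0.95), *Fech* (-0.93), *Urod* (-0.61) and *Cpox* (-0.61), by construction, since those markers rose more. The cause of the other changes was not tested. No paired analysis was possible because the groups share no replicate number.

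With 3 libraries per group an exact permutation test cannot go below 0.1. *Alas1*, with 165 to 449 reads per library, had the fewest reads of the 9 genes over all libraries together (1748). In WT replicate 2, however, *Uros* had fewer (193 against 238). A change of the size of the *Alas1* estimate could not be told from the spread between its libraries.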
